A study of Mus musculus with 13 samples.

Results

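The genes that flank the immunoglobulin heavy-chain locus at the far end of mouse chromosome 12 were described in purified kidney glomeruli of 3 genotypes. They were chosen by position and by read counts: a gene on chromosome 12 whose smallest start lay at or beyond 105 Mb, with at least 10 counts in at least 4 libraries, and a symbol that did not begin with Igh. The counts that chose them are a description of what is measurable in these samples, and the rule itself uses no comparison of genotypes, although it was written with earlier results of these data known. Of 342 genes of the region without an Igh symbol, 98 met the rule, out of 46958 genes in the whole table. The other 244 did not reach the counts, and 178 of these had 0 counts in every library. Begain stood just inside the rule, with exactly 4 libraries at 10 counts or more. Ak7, Bdkrb2 and Gm7019 stood just outside it, with 2 such libraries each.

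RNA of bead-purified glomeruli, the filtering units of the kidney, was sequenced as stranded messenger RNA libraries from mice aged 6 months on the mixed background C57/BL6x129/SVxBALB/c. The groups were 4 libraries of the genotype kFRA (LCDD), 4 of DH-LMP2A and 5 of wild type (WT). Each library pooled 3 mice, except WT 3, WT 4 and WT 5, which came from 1 mouse each. The study asked how monoclonal free light chains affect the glomerulus in light chain deposition disease (LCDD), in which such chains settle in kidney basement membranes. The labels name both altered genotypes without describing their alleles. As background from the literature on these lines and not from the labels, kFRA carries a human light-chain gene placed in the kappa locus, and DH-LMP2A carries a gene of Epstein-Barr virus, LMP2A, placed in the heavy-chain locus, where it keeps B cells alive without a heavy chain. In the published disease model the light-chain allele is combined with DH-LMP2A, and the labels do not state whether the LCDD libraries also carry it.

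The heavy-chain locus is active in B cells and plasma cells, in which its variable, diversity and joining segments are joined and strong enhancers drive its transcription. A gene inserted by homologous recombination also carries along a stretch of neighbouring chromosome from the strain of the targeted stem cells. The genes beside the locus are ordinary genes of many functions, transcribed in most tissues, including an imprinted domain that is read from one parental chromosome.

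The heavy-chain genes of the deposited table span chr12:113254830-116010093 on GRCm38, which is 2.76 Mb. Of the 98 flanking genes, 82 lay before this span, 12 after it and 4 inside it. The annotation gave 83 of them as protein coding. The others were of other kinds, apart from BC022687, which was not matched to it. The 4 inside the span, Gm9134, Gm9517, Gm9256 and Gm9260, are processed pseudogenes, whose reads cannot be separated with certainty from those of their parent genes. Among the 98 genes, 14 overlapped another tested gene, 10 of them on the opposite strand, and the strand setting of the counting is not given in the sources used here.

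The gene nearest to the locus that passed a test was 4930427A07Rik, now named Tedc1, a component of a tubulin complex of centrioles. It occupies chr12:113156421-113166048 on the plus strand, 0.089 Mb before the first heavy-chain gene. The 250 bases before its start are shown because it is the closest gene to the locus that was called. They are chr12:113156171-113156420 on the plus strand of GRCm38.p6, from RefSeq, with matches on either strand to the CCAAT box (CCAAT) or the GC box (GGGCGG) in capitals.
4930427A07Rik: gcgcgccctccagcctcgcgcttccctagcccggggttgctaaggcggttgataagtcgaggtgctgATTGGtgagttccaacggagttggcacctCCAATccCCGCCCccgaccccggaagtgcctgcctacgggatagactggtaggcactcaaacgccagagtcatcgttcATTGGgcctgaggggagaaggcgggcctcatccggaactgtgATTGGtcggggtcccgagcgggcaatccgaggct
This stretch held 4 CCAAT boxes and 1 GC box. Among 32851 RefSeq promoter windows of the same length, 33.8% held a CCAAT box, 32.7% held a GC box, and 0.84% held at least 4 CCAAT boxes. The letters TTTGAA of the cell cycle homology region, found in 16% of the windows, were not in this one. These matches describe the letters of the window only.

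The libraries held 16687509 to 30587890 counts, with a similar spread of depth in each genotype. Podocyte markers summed to 7241 to 34340 CPM (counts relative to library size) over all libraries, so the labelled tissue was present in each. Proximal tubule markers differed far more between libraries, from 92.2 to 4255 CPM in WT and from 692 to 4781 in DH-LMP2A. The Y-linked gene Ddx3y had 0 or 1 raw counts in WT 1, WT 3, WT 4 and WT 5 and 197 in WT 2. It had at least 208 in each LCDD and DH-LMP2A library. WT 2 held the fewest counts in total, and relative to library size its Ddx3y was above that of LCDD 2 and LCDD 4. The sex of the mice therefore went largely, but not wholly, with genotype in comparisons with WT. Sex and genotype can be told apart there only in part, through a covariate. The sample titles share a 6-digit code of 4 values, whose meaning is not stated: LCDD and DH-LMP2A have 1 library under each, WT 1 has the first code, WT 2 the third, and WT 3 to WT 5 the fourth. Libraries of the same code deviated together on average, although some pairs of different codes did so as strongly. Each test was also fitted with the code as a block.

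The flanking genes took about the same share of the transcriptome in every genotype. Their counts made up 0.584% ± 0.0182 of all counts in LCDD (SD, n = 4), 0.580% ± 0.0109 in DH-LMP2A (SD, n = 4) and 0.562% ± 0.0231 in WT (SD, n = 5), with overlapping ranges. Between LCDD and DH-LMP2A, their median log2 fold change was 0.04, against −0.01 over all 16738 genes tested. The medians were 0.08 against 0.01 for LCDD over WT, and 0.04 against 0.00 for DH-LMP2A over WT. The median size of the change, without sign, was 0.23, 0.20 and 0.20 in these 3 comparisons, and 0.21, 0.17 and 0.19 over all genes. Changes of at least 1 on the log2 scale were seen in 2, 4 and 5 of the 98 genes, which is 2.04%, 4.08% and 5.10%. Over all genes the shares were 7.32%, 5.75% and 6.92%. The 95% interval of the change lay within 1 log2 unit of 0 for 63, 67 and 68 of the 98 genes, so larger changes of the others are not bounded at this depth and number of libraries.

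**Figure D1:**
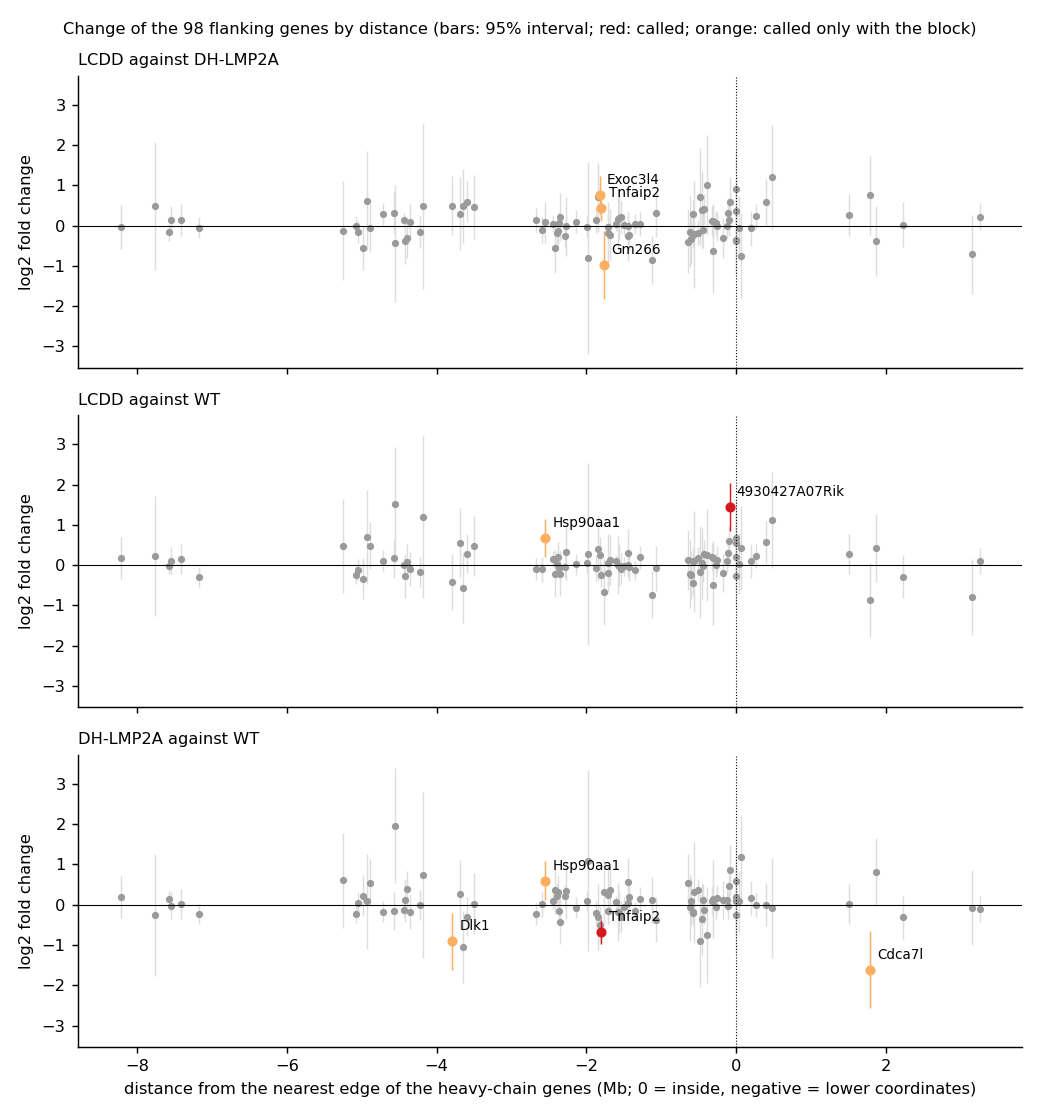
Log2 fold change (vertical axis) of each of the 98 flanking genes against its distance in Mb from the nearest edge of the heavy-chain genes (horizontal axis), in 3 panels, 1 for each comparison. Bars are 95% intervals, red points were called at an adjusted p under 0.05 and orange points only with the title code as a block. Most points sit near 0 on both sides of the locus, and the 12 genes after it hold 1 orange point, Cdca7l.

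Few of them passed the test in any comparison. A gene is called where the adjusted p of the edgeR quasi-likelihood test, over all genes tested, is under 0.05. These p-values measure the spread between these libraries, since the labels say only that the libraries are separate. Between LCDD and DH-LMP2A, 0 of 98 were called, against 2.00% of all genes. In that comparison 9 had an unadjusted p under 0.05, against 13.1% of all genes, and DESeq2 also called 0. Between LCDD and WT, 1 of 98 was called, against 1.84% of all genes, and 9 had an unadjusted p under 0.05, against 12%. Between DH-LMP2A and WT, 1 of 98 was called, against 0.627%, and 12 had an unadjusted p under 0.05, against 12.5%. These counts are near or below the background of all genes.

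The block changed which genes were called. With it, 3 of 98 were called between LCDD and DH-LMP2A, against 6.10% of all genes. The blocked count was 1 of 98 between LCDD and WT, against 3.20%, and 4 of 98 between DH-LMP2A and WT, against 3.36%. With the block, 4 of 5 sex markers were also called higher in DH-LMP2A than in WT, against 0 without it, and 0 in LCDD against WT. The part of sex in the blocked calls was not tested, since no fit with both the block and the sex covariate is given. Genotypes whose libraries did not overlap at all were counted as well, with no model. That held for 3 genes between LCDD and DH-LMP2A, against 7.62% of all genes, for 3 between LCDD and WT, against 4.59%, and for 4 between DH-LMP2A and WT, against 4.97%. The genes called by the block alone or set apart by range alone were named after their values were seen, apart from Hsp90aa1, Dlk1 and Crip1.

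The genes that border the locus include small LIM-domain proteins, a chromatin factor and a sorting protein. 4930427A07Rik rose in LCDD against WT. Its TMM-scaled level was 2.53, 2.30, 2.10 and 1.06 CPM in LCDD 1 to 4, 1.23, 1.56, 1.37 and 1.16 CPM in DH-LMP2A 1 to 4, and 0.518, 0.741, 0.681, 0.761 and 0.973 CPM in WT 1 to 5. Every WT library lay below every library of both other genotypes, and LCDD 4 lay below the DH-LMP2A libraries while the other LCDD libraries lay above them. The log2 fold change of LCDD over WT was 1.44 ± 0.28 (SE, 95% interval 0.83 to 2.05), with an edgeR adjusted p of 0.0187. With the block it was 1.29, with an edgeR adjusted p of 0.0612, so the call was lost. DH-LMP2A over WT gave 0.86 ± 0.28 (edgeR adjusted p = 0.229), and LCDD over DH-LMP2A gave 0.58 ± 0.29 (edgeR adjusted p = 0.425). The difference between the 2 effects against WT is the last of these comparisons, which did not pass the test.

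The call of 4930427A07Rik rested on several libraries. Without LCDD 1, LCDD 2, WT 3 or WT 4 in turn, the edgeR adjusted p of 4930427A07Rik was 0.0636, 0.0603, 0.0591 and 0.0552. A covariate of sex markers gave a fold change of 1.16 with an edgeR adjusted p of 0.542, and a fit without WT 3, WT 4 and WT 5 gave 1.64 with 0.217. In the same libraries the sum of 20 cell cycle genes was 130 to 254 CPM in LCDD, 62.3 to 70.9 in DH-LMP2A and 51.4 to 76.8 in WT. All 20 had a log2 fold change above 0 in LCDD against WT, and 15 were called higher. The part of the cell cycle genes in the change of 4930427A07Rik was not tested. In bulk tissue, fewer cells of a type and less RNA per cell cannot be told apart.

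Crip1 and Crip2, neighbours that encode cysteine-rich LIM proteins, end 0.101 and 0.109 Mb before the locus. Crip1 stood at 87.5, 107, 96.5 and 61.6 CPM in LCDD 1 to 4, at 81.4, 77.5, 80.1 and 80.5 CPM in DH-LMP2A 1 to 4, and at 39.5, 62.8, 52.1, 71.5 and 64.2 CPM in WT 1 to 5. All DH-LMP2A libraries lay above all WT libraries, while LCDD 4 lay among the WT libraries. Its log2 fold change was 0.61 ± 0.17 for LCDD over WT (edgeR adjusted p = 0.118) and 0.46 ± 0.17 for DH-LMP2A over WT (edgeR adjusted p = 0.298). Without LCDD 4 the first of these was called, with an edgeR adjusted p of 0.045. Crip2, which had the highest mean level per kilobase of exon among the 98 genes (142 CPM per kb), ranged from 279 to 412 CPM in LCDD, 225 to 319 in DH-LMP2A and 235 to 336 in WT. Its genotypes overlapped and no comparison of it was called.

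Farther out on the same side lie Mta1, a subunit of a nucleosome remodelling complex, Pacs2, a sorting protein of the secretory pathway, and Brf1, a subunit of the RNA polymerase III initiation factor. None of these 3 was called in any comparison, and the 95% interval of Mta1 stayed within −0.31 and 0.40 throughout. On the other side, the nearest genes were Zfp386, Vipr2, Wdr60, Esyt2 and Ncapg2, also with 0 calls. Vipr2, the receptor for vasoactive intestinal peptide, was at low levels, 0.08 to 0.971 CPM, where 3 counts correspond to 0.0981 to 0.180 CPM. Ncapg2, a condensin subunit that compacts chromosomes, stood at 12.8, 10.3, 7.76 and 7.41 CPM in LCDD 1 to 4, at 4.71, 7.45, 6.17 and 7.25 CPM in DH-LMP2A 1 to 4, and at 5.02, 4.14, 7.93, 8.41 and 6.57 CPM in WT 1 to 5. The first 2 LCDD libraries were above all others, and LCDD 3 and LCDD 4 lay among them. Its log2 fold change was 0.58 ± 0.25 for LCDD over WT (edgeR adjusted p = 0.351) and 0.58 ± 0.26 for LCDD over DH-LMP2A (edgeR adjusted p = 0.360), so Ncapg2 was not called. Of the 20 cell cycle genes, all 20 had a log2 fold change above 0 in both comparisons. Those called higher numbered 15 in LCDD against WT and 12 in LCDD against DH-LMP2A.

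The 4 pseudogenes inside the span had 0 calls. The highest of their levels was 2.56 CPM, for Gm9517 in DH-LMP2A 2. Of the heavy-chain genes around them 7 were tested, and 2 were called lower in LCDD against WT and 2 in DH-LMP2A against WT. The median size of the change over all 7, without sign, was 2.33 and 2.47 log2 units, against 0.41 and 0.23 for the 4 pseudogenes. Between LCDD and DH-LMP2A, 0 of the 7 were called, with a median size of 0.45 against 0.37. The constant genes summed to 43.8 to 68.4 CPM in WT, 7.38 to 18.8 in LCDD and 4.43 to 14.3 in DH-LMP2A. Of the 6 constant genes tested, 1 was called lower than WT in each altered genotype, Igha, and 2 had a log2 fold change above 0. Igha held 188 to 1254 raw counts in the WT libraries and 1 to 7 in those of LCDD and DH-LMP2A. Ighm overlapped, at 109 to 1432 raw counts in WT, 111 to 405 in LCDD and 77 to 340 in DH-LMP2A. B and plasma cell markers summed to 43.0 to 118 CPM in WT, 17.01 to 23.0 in LCDD and 10.5 to 26.8 in DH-LMP2A. In each genotype against WT, 2 of 14 were called lower, and only 1 of 14 had a log2 fold change above 0. These markers are at low levels in glomeruli, and their part in the values of the flanking genes was not tested.

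**Figure D2:**
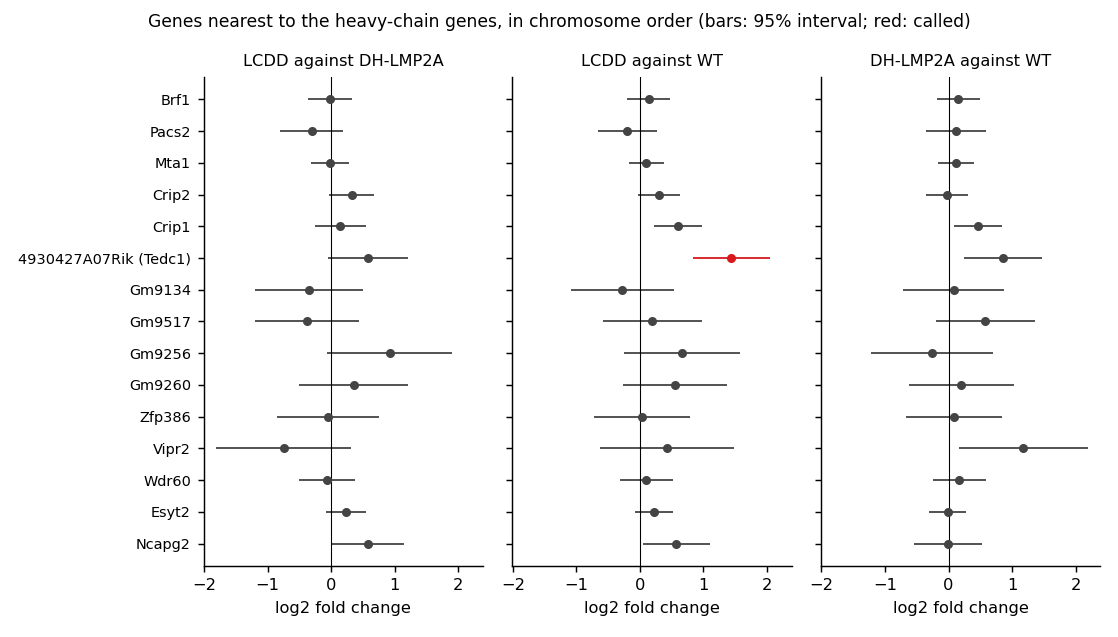
Log2 fold change (horizontal axis, point) with its 95% interval (bar) of the named genes nearest to the heavy-chain locus on each side, of 4930427A07Rik and of the 4 pseudogenes inside it, in chromosome order from top to bottom, with 1 panel for each comparison. Only 4930427A07Rik in LCDD against WT, in red, was called, and most other intervals include 0.

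The list of cytoskeleton genes held 13 genes, among them Inf2, a formin that assembles actin in podocytes, Evl, an actin regulator at cell edges, Dync1h1, the dynein heavy chain, and Ahnak2, a large scaffold protein. None of the 13 was called in any comparison, with or without the block, and their medians were 0.13, 0.10 and 0.01 for LCDD over DH-LMP2A, LCDD over WT and DH-LMP2A over WT. Inf2 varied widely inside each genotype, at 82.2, 170, 304 and 199.8 CPM in LCDD 1 to 4, at 126, 244, 302 and 326 CPM in DH-LMP2A 1 to 4, and at 107, 198, 176, 194 and 188 CPM in WT 1 to 5. The lowest library of each genotype was the one of the first title code. DH-LMP2A over WT gave 0.53 ± 0.34 for Inf2 (edgeR adjusted p = 0.550), and with the block 0.59 ± 0.15 (edgeR adjusted p = 0.0549). Podocyte markers summed to 7241 to 31340 CPM in LCDD, 16430 to 32000 in DH-LMP2A and 15210 to 34340 in WT, and their part in the values of Inf2 was not tested.

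The list of signalling and stress genes held 15 of the flanking genes, including the kinase Akt1, Traf3, an adaptor of TNF receptor signals, and Tnfaip2, a gene switched on by TNF. Without the block, 1 of the 15 was called lower in DH-LMP2A against WT and 0 were called in the other comparisons, with medians of 0.08, −0.09 and −0.07. Tnfaip2 occupies chr12:111442469-111455018 on the plus strand, 1.80 Mb before the locus. It stood at 179.6, 177, 198 and 141 CPM in LCDD 1 to 4, at 149.6, 111, 149 and 105 CPM in DH-LMP2A 1 to 4, and at 195, 229, 189, 207 and 211 CPM in WT 1 to 5. All DH-LMP2A libraries lay below all WT libraries, and the LCDD libraries overlapped both.

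Tnfaip2 fell in DH-LMP2A against WT by 0.68 ± 0.14 on the log2 scale (95% interval −0.98 to −0.38, edgeR adjusted p = 0.0479). With the block the fold change was −0.74, with an edgeR adjusted p of 0.0131. LCDD over DH-LMP2A gave 0.43 ± 0.14 (edgeR adjusted p = 0.169), and this passed the test with the block (0.44, edgeR adjusted p = 0.0437). That blocked call was kept without DH-LMP2A 1 and lost without any other single library of these genotypes, with edgeR adjusted p-values for Tnfaip2 from 0.0562 to 0.214. LCDD over WT gave −0.24 ± 0.14 (edgeR adjusted p = 0.551). The call against WT without the block was lost when any of DH-LMP2A 2, DH-LMP2A 3, DH-LMP2A 4, WT 2, WT 3, WT 4 or WT 5 was left out, with edgeR adjusted p-values for Tnfaip2 from 0.0656 to 0.202. A covariate of sex markers gave −0.85 with an edgeR adjusted p of 0.180, and without the 3 single-mouse WT libraries the value was −0.74 with 0.162. The blocked call against WT was lost without DH-LMP2A 4 (edgeR adjusted p = 0.0865) and without the single-mouse WT libraries (edgeR adjusted p = 0.186). Endothelial markers summed to 8515 to 18980 CPM in LCDD, 7691 to 13740 in DH-LMP2A and 12670 to 18000 in WT, and macrophage markers to 85 to 218, 67 to 181 and 76 to 314 CPM. Their part in the values of Tnfaip2 was not tested.

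Exoc3l4, next to Tnfaip2 and of the same family of exocyst-related genes, occupies chr12:111417430-111431182. Its levels were 59.0, 46.9, 54.4 and 38.4 CPM in LCDD 1 to 4, 39.96, 19.3, 37.4 and 21.3 CPM in DH-LMP2A 1 to 4, and 42.9, 46.8, 37.3, 40.8 and 42.1 CPM in WT 1 to 5. LCDD was above DH-LMP2A under each of the 4 title codes, although the ranges overlapped through LCDD 4. LCDD over DH-LMP2A gave 0.75 ± 0.22 (edgeR adjusted p = 0.113) and with the block 0.80 (edgeR adjusted p = 0.0170). Gm266, a predicted gene just after Tnfaip2, was called lower in LCDD than in DH-LMP2A with the block alone (−1.16, edgeR adjusted p = 0.0342, against −0.98 and 0.287 without it). It was lowest in LCDD 1, at 4.30 CPM, and 12.1 to 23.2 CPM in the other LCDD libraries, against 22.0 to 35.3 CPM in DH-LMP2A and 14.8 to 30.8 CPM in WT. Leaving out LCDD 2, DH-LMP2A 2 or DH-LMP2A 4 ended all 3 blocked calls between LCDD and DH-LMP2A and gave 0 among the 98 genes. The call of Exoc3l4 was also lost without LCDD 1 (edgeR adjusted p = 0.0529), and that of Gm266 without DH-LMP2A 1 (edgeR adjusted p = 0.0754).

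Hsp90aa1, the stress-inducible cytosolic HSP90 chaperone, was the flanking gene with levels apart from WT in both altered genotypes besides 4930427A07Rik. It stood at 503, 281, 305 and 357 CPM in LCDD 1 to 4, at 348, 261, 293 and 466 CPM in DH-LMP2A 1 to 4, and at 261, 151, 254, 255 and 213 CPM in WT 1 to 5. Each LCDD library was above each WT library, and DH-LMP2A 2, the lowest of its genotype, exceeded WT 1, the highest in WT, only beyond the digits printed. Without the block the log2 fold change over WT was 0.67 ± 0.22 in LCDD (edgeR adjusted p = 0.182) and 0.59 ± 0.22 in DH-LMP2A (edgeR adjusted p = 0.296). With the block both were called, at 0.85 (edgeR adjusted p = 0.0119) and 0.77 (edgeR adjusted p = 0.0220). LCDD over DH-LMP2A was 0.08 (95% interval −0.43 to 0.59, edgeR adjusted p = 0.922). Reads of Hsp90aa1 and its near-identical copies may have been split by the counting, whose treatment of such reads is not given in the sources used here.

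The blocked call of Hsp90aa1 in LCDD was kept in each of the 9 fits that left out 1 LCDD or WT library, with edgeR adjusted p-values of 0.0119 with all libraries and at most 0.0475 without one. Without the 3 single-mouse WT libraries it was 0.83 with an edgeR adjusted p of 0.210. In DH-LMP2A the blocked call of Hsp90aa1 was lost without DH-LMP2A 2, DH-LMP2A 3, DH-LMP2A 4 or WT 2, with edgeR adjusted p-values from 0.0508 to 0.150. For 9 other heat shock genes, picked after these values were seen, every log2 fold change over WT without the block was above 0. The values ran from 0.28 to 1.36 in LCDD and from 0.21 to 1.15 in DH-LMP2A. The largest in LCDD was that of Hspa1a, whose libraries overlapped between genotypes. Hspa1a stood at 301, 435, 18.0, 14.9 and 48.6 CPM in WT 1 to 5. It ranged from 79.2 to 811 CPM in LCDD and from 97.8 to 547 CPM in DH-LMP2A, so its low WT values were those of the single-mouse libraries. Among the 9 genes, 0 were called against WT without the block. With it, Hsph1, a partner of HSP70, was called higher than WT in LCDD (0.84, edgeR adjusted p = 0.0200) and in DH-LMP2A (1.19, edgeR adjusted p = 0.00653), and Hspd1, a mitochondrial chaperonin, in DH-LMP2A (0.44, edgeR adjusted p = 0.0341).

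**Figure D3:**
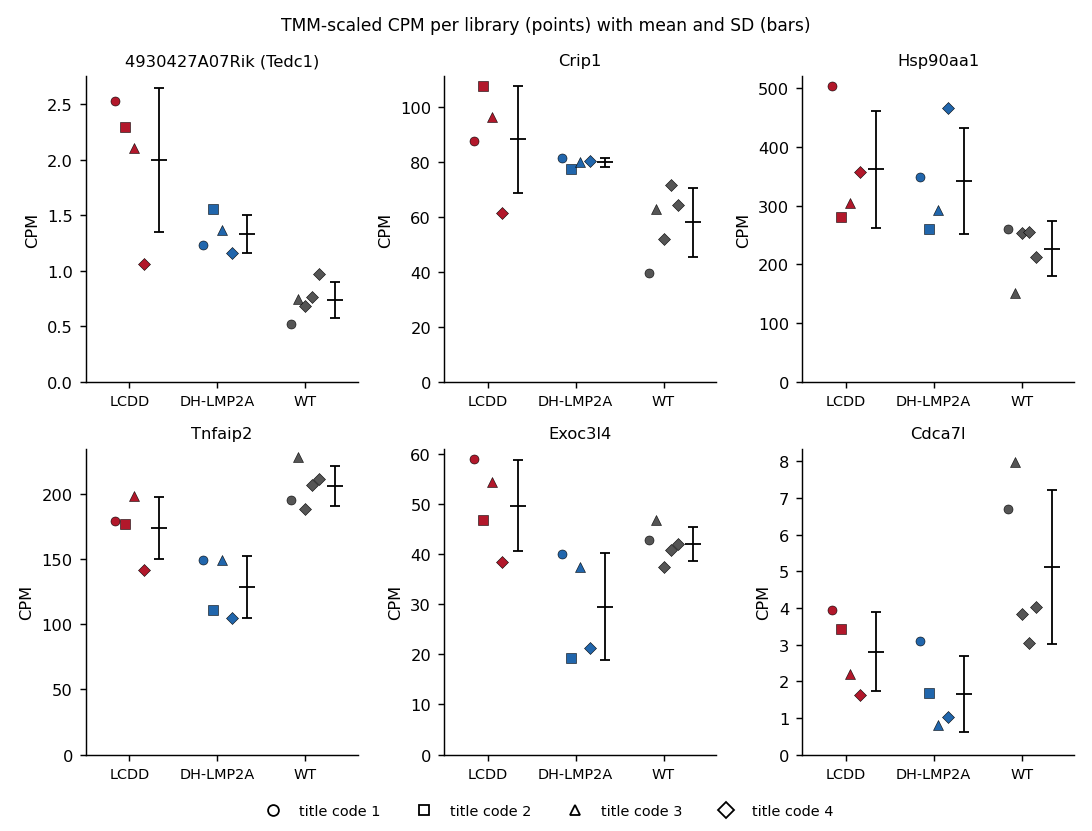
TMM-scaled CPM (vertical axis, linear from 0) of 6 flanking genes in each library, by genotype, with the marker shape giving the title code and the bar the mean and SD of the genotype. 4930427A07Rik is lowest in WT, and Tnfaip2 is lower in every DH-LMP2A library than in any WT library.

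Transcription and chromatin genes of the flank, 12 in the list, had 0 calls with or without the block, with medians of −0.02, 0.02 and −0.01. Yy1, a zinc finger factor that binds many promoters and loops in DNA, was found at 52.1 to 59.5 CPM in LCDD, 47.0 to 53.1 in DH-LMP2A and 50.3 to 57.0 in WT. The genotypes overlapped, and its log2 fold change was 0.14 for LCDD over DH-LMP2A, 0.01 for LCDD over WT and −0.13 for DH-LMP2A over WT, with no call. Cdca7l, a MYC-interacting nuclear protein 1.79 Mb after the locus, was the single gene after the span with a call. It stood at 3.95, 3.43, 2.21 and 1.62 CPM in LCDD 1 to 4, at 3.11, 1.67, 0.799 and 1.03 CPM in DH-LMP2A 1 to 4, and at 6.70, 7.97, 3.84, 3.04 and 4.02 CPM in WT 1 to 5. DH-LMP2A was below WT under each of the 3 codes they share, with ranges that met at DH-LMP2A 1 and WT 4.

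The log2 fold change of Cdca7l in DH-LMP2A over WT was −1.61 ± 0.44 (edgeR adjusted p = 0.144), and −2.02 with the block (edgeR adjusted p = 0.0131). LCDD over WT gave −0.86 ± 0.43 (edgeR adjusted p = 0.466), and −1.23 with the block (edgeR adjusted p = 0.0587). DESeq2 without the block also called Cdca7l in DH-LMP2A against WT. The blocked call was lost without DH-LMP2A 4, with an edgeR adjusted p of 0.0531, and without the 3 single-mouse WT libraries, with 0.133. The gene overlaps Dnah11, an axonemal dynein on the opposite strand, whose change in the same comparison was 0.81 ± 0.39 (edgeR adjusted p = 0.420).

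Genes of RNA handling, translation and metabolism, 16 in the list, had 0 calls in each comparison, with medians of 0.02, −0.01 and 0.02. Ckb, brain-type creatine kinase, ranged from 52.1 to 112 CPM in LCDD, 37.5 to 129 in DH-LMP2A and 63.0 to 92.2 in WT, with no call. Aspg, an asparaginase, was lower in all LCDD libraries, at 4.50 to 7.76 CPM, than in all DH-LMP2A libraries, at 7.96 to 13.7 CPM. That difference was −0.85 ± 0.28 (edgeR adjusted p = 0.166), and WT spanned both, at 5.11 to 11.8 CPM. Amn, which carries cubilin to the surface of proximal tubule cells, varied from 0.268 to 27.5 CPM. It was highest in DH-LMP2A 1, WT 1 and LCDD 1, the libraries of the first title code, and the share of its variance between codes, taken alone, was 79.6%.

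Genes of genome maintenance and division, 7 in the list, had 0 calls with or without the block, with medians of −0.06, −0.08 and −0.01. Vrk1, a kinase of mitotic chromatin, was lower in all LCDD libraries, at 13.9 to 16.8 CPM, than in all WT libraries, at 17.2 to 19.8 CPM. The difference was −0.30 ± 0.11 (edgeR adjusted p = 0.285), and DH-LMP2A, at 14.4 to 19.3 CPM, spanned both.

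The imprinted Dlk1-Dio3 domain lies before the locus, with Dlk1 ending 3.79 Mb from it. Dlk1, a membrane protein of the Notch ligand family, and Rtl1, derived from a retrotransposon, are read from the paternal chromosome, and the long noncoding RNAs Meg3, Rian and Mirg from the maternal one. Of 6 measured genes of the domain 0 were called, with medians of 0.48 for LCDD over DH-LMP2A, 0.38 for LCDD over WT and −0.14 for DH-LMP2A over WT. Dlk1 stood at 34.4, 56.2, 38.5 and 19.1 CPM in LCDD 1 to 4, at 34.6, 35.2, 18.0 and 17.3 CPM in DH-LMP2A 1 to 4, and at 59.5, 42.4, 33.5, 41.0 and 70.5 CPM in WT 1 to 5. DH-LMP2A 3 and DH-LMP2A 4 were below all WT libraries, and DH-LMP2A 1 and DH-LMP2A 2 lay just above WT 3, the lowest in WT. The log2 fold change of DH-LMP2A over WT was −0.91 ± 0.33 (edgeR adjusted p = 0.274), and with the block −1.28 (edgeR adjusted p = 0.0400).

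Rtl1, the other paternally read gene, gave −1.05 ± 0.41 in the same comparison (edgeR adjusted p = 0.323) and −1.44 with the block (edgeR adjusted p = 0.0543). The maternally read Meg3 gave 0.26 ± 0.40 (edgeR adjusted p = 0.824). The other maternally read RNAs, Rian and Mirg, averaged 22.3 and 1.42 CPM in DH-LMP2A, and 27.4 and 1.38 CPM in WT. In the blocked fit without WT 2, Rian was called lower in DH-LMP2A than in WT, as was Rtl1. The values therefore do not divide cleanly by parental origin. Meg3 was more uneven inside LCDD and DH-LMP2A than in WT, at 13.4 to 58.1, 10.3 to 41.5 and 17.9 to 25.6 CPM. Rian was higher in all LCDD libraries, at 27.3 to 41.8 CPM, than in all DH-LMP2A libraries, at 18.8 to 27.0 CPM. This was a change of 0.59 ± 0.24 (edgeR adjusted p = 0.289) with no call, and WT overlapped both at 16.1 to 37.6 CPM. Without DH-LMP2A 2, DH-LMP2A 3, DH-LMP2A 4, WT 2, WT 3 or WT 4, the blocked call of Dlk1 was lost, with edgeR adjusted p-values from 0.0567 to 0.178, and without the 3 single-mouse WT libraries it was 0.193.

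**Figure D4:**
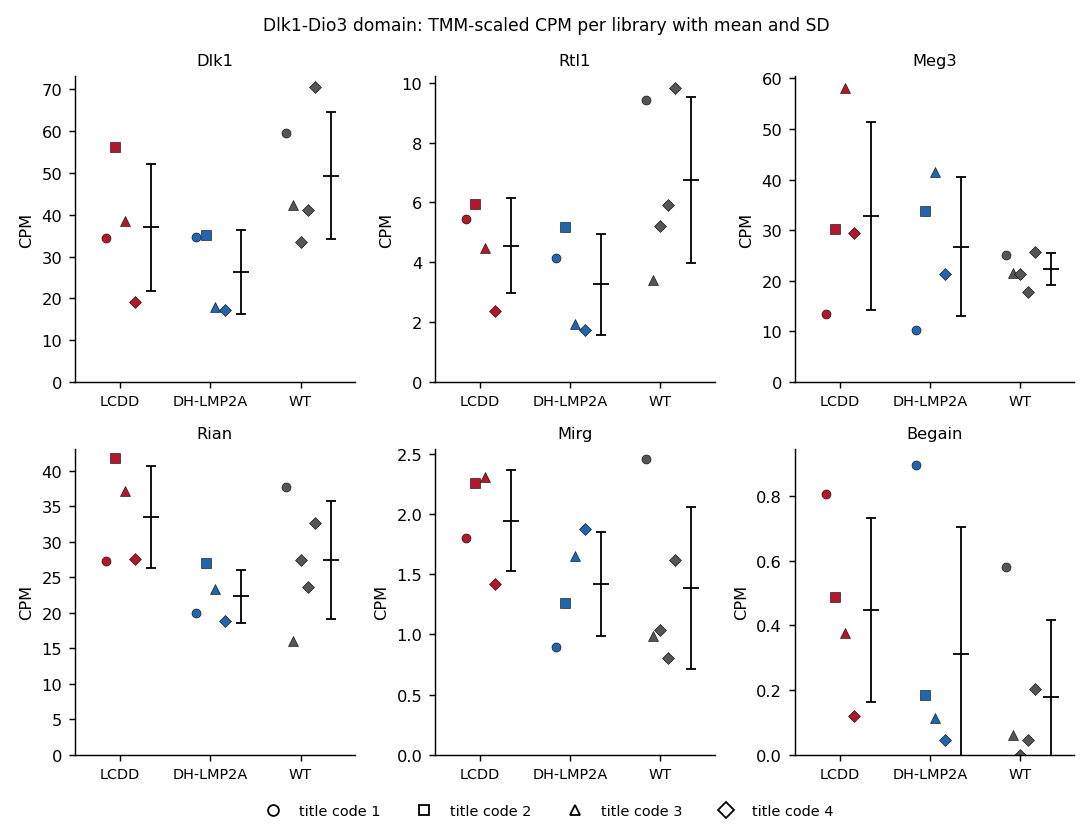
TMM-scaled CPM (vertical axis, linear from 0) of the 6 measured genes of the Dlk1-Dio3 domain in each library, by genotype, with the marker shape giving the title code and the bar the mean and SD, cut at 0 for Begain. The highest values of Dlk1 and Rtl1 are in WT, Rian does not overlap between LCDD and DH-LMP2A, and 0 of the 6 genes were called without the block.

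The shares of variation that went with the title code and with the genotype were near those of all genes. The median share of a gene's variance in log2 CPM was 37.6% for the code and 20.3% for the genotype, each taken alone, and 40.8% and 19.9% over all genes tested. The code had the larger share in 70 of 98 genes, which is 71.4%, against 70.2% of all genes. The code has 4 values and the genotype 3, and a factor with more values takes a larger share even with no effect. A larger share for the code is therefore not read as a larger effect, and the count of 70 is given only beside that of all genes. Glrx5, an iron-sulfur cluster protein, had 86.4% of its variance between codes, with its highest value in each genotype in the library of the first code (23.0 CPM in LCDD 1, 27.6 in DH-LMP2A 1 and 20.7 in WT 1). Itgb8, an integrin subunit that activates TGF-beta and the flank's last protein-coding gene, was lowest there in each genotype, at 21.8, 46.7 and 56.9 CPM. The other libraries of Itgb8 held 37.8 to 89.6 CPM in LCDD, 87.3 to 142 in DH-LMP2A and 76.4 to 147 in WT. At the other extreme the genotype accounted for 75.1% of the variance of 4930427A07Rik and 73.2% of that of Tnfaip2. Both had been called between genotypes in these same libraries, so their high shares are no separate evidence.

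The direction of a change was the same under every title code for 17 genes higher and 16 lower in LCDD than in DH-LMP2A, which is 33.7% of the 98 against 33.8% of all genes over 4 codes. For LCDD and WT, 14 were higher and 16 lower, which is 30.6% against 31.3% over 3 codes. For DH-LMP2A and WT, 18 were higher and 14 lower, which is 32.7% against 32.3%. Comparisons that share a genotype share its libraries.

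The extremes fell on a few libraries. With an even spread, each library would hold the highest value of 7.54 genes. WT 2 held the highest in 18 genes and the lowest in 12, LCDD 1 the highest in 16 and the lowest in 17, and DH-LMP2A 1 the highest in 15. LCDD 4 held the highest in 0 and WT 4 in 1, while DH-LMP2A 4 and WT 4 held the lowest in 12 and 11. These counts are given without those of all genes, so they are not read as a trait of the flank.

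Along chromosome 12, the share of genes with non-overlapping genotypes in the flank before the locus lay within the range of the other windows. In LCDD against DH-LMP2A, 3.66% of the 82 genes before the locus and 0 of the 12 after it did not overlap, against 3.45% to 14% in 7 windows of 15 Mb before the flank and 7.71% on other chromosomes. In LCDD against WT the values were 3.66% and 0, against 2.08% to 12% and 4.58%. In DH-LMP2A against WT they were 4.88% and 0, against 0 to 7.14% and 5% on other chromosomes. These shares are a description and were not tested against each other.

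**Figure D5:**
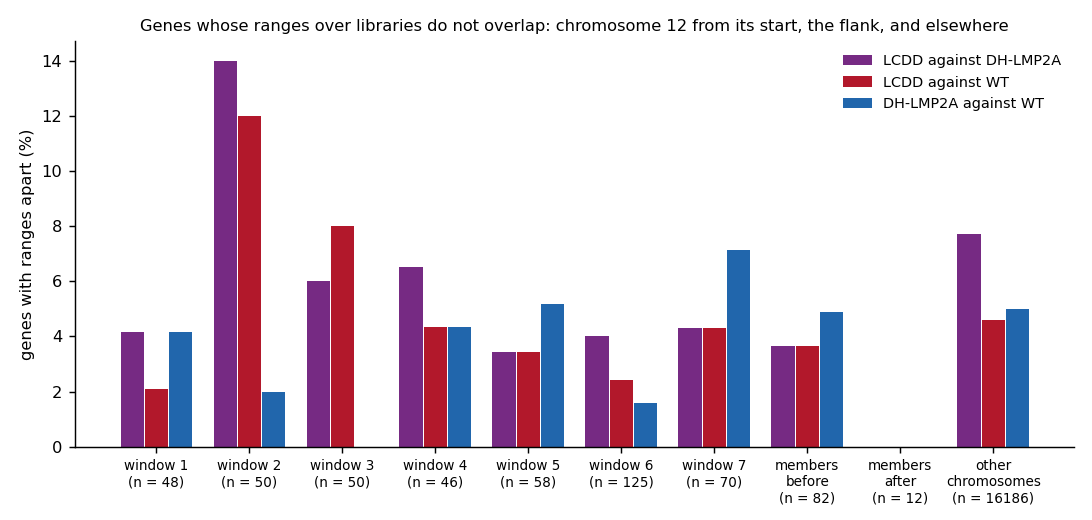
Percent of tested genes whose libraries do not overlap between 2 genotypes (vertical axis, from 0) in 7 windows of 15 Mb of chromosome 12 from its start, in the flanking genes before and after the heavy-chain locus, and on all other chromosomes, with 1 bar for each comparison and the number of genes under each set. The flank before the locus sits between 3.66% and 4.88%, and the 12 genes after it are at 0.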

How the data were processed

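Messenger RNA was measured in 13 libraries of beads-purified glomeruli. Values are raw counts of reads per gene as the authors deposited them, beside each gene's summed exon length, per the file headers. The submitters' processing notes name STAR 2.4.0a, featureCounts, Subread 1.5.0-p3, DESeq2 and the builds mm10 and GRCm38, without their order. The strand setting, the treatment of reads with several matches and the annotation release are not given in the sources used here. All 13 count columns carry 1 sample's title, and 0 were left unused. Libraries carry no molecular identifiers, so a floor of 3 counts covers counting error only.

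The edgeR function filterByExpr (minimum count 10) kept 16738 genes, including all 98 flanking genes. Counts were TMM-scaled and fitted in one quasi-likelihood model with genotype only (edgeR 4.0.16, R 4.3.3), and p-values were adjusted over all genes tested by the Benjamini-Hochberg method. SE was obtained from the log2 fold change and the F statistic. Log2 CPM used a prior count of 2. The fit was checked on simulated data. The flanking genes and all gene lists were chosen with earlier results of these data known.

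The genes named by rule are those called that average 0.5 CPM or more (up to 12 per comparison), the 5 nearest genes with ordinary symbols on each side of the locus, and 16 fixed genes. Others were named after their values were seen. Same-code libraries deviated together from their genotype means: correlations over genes were 0.153 to 0.593 in 4 pairs for LCDD and DH-LMP2A, 0.127 to 0.400 in 3 pairs for LCDD and WT, and 0.160 to 0.492 in 3 pairs for DH-LMP2A and WT. Their means were 0.421, 0.277 and 0.37, against −0.139, −0.092 and −0.127 for pairs of different codes. Deviations from a genotype mean cancel within that genotype. The negative means therefore follow largely from the positive ones and are no separate evidence of pairing. Some pairs of different codes correlated more than same-code pairs. LCDD 2 gave 0.524 with DH-LMP2A 1 and 0.153 with DH-LMP2A 2. LCDD 3 gave 0.32 with the WT libraries of the fourth code and 0.127 with WT 2. The code was taken to pair libraries, although the deviations did not follow it strictly. GENCODE M21 (GRCm38) matched 97 of the 98 genes by symbol or synonym and position, and the RefSeq promoter table (GRCm38.p6) held 80 of them. The alternatives were DESeq2 1.42.0, RLE size factors, TMM factors without chromosome 12, other filters, the genotypes compared alone, the block, covariates of sex or tubule markers, a size threshold and left-out libraries.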

Additional observations from a re-analysis of the deposited data

Results flagged for a closer look

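In 6 of 72 groups of values, formed by 24 named genes and 3 genotypes, a single library lay apart from the others of its genotype by Dixon's test, where chance alone gives about 3.60. Pacs2 was at 6.62 log2 CPM in WT 1, and at 7.07 to 7.25 in the other WT libraries. Inf2 was at 6.74 log2 CPM in WT 1, and at 7.46 to 7.63 in the others. Zfp386, a zinc finger gene just after the locus, was at 3.40 log2 CPM in DH-LMP2A 1, against 4.80 to 4.82 in the others of that genotype. In WT 2, Zfp386 was at 2.99 log2 CPM, against 4.46 to 4.95. Vipr2 was at −2.61 log2 CPM in WT 3, against −1.18 to −0.66, at a level below 3 counts. Dync1h1 was at 9.42 log2 CPM in LCDD 1, against 9.72 to 9.76.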

How the results depend on the processing

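Between LCDD and DH-LMP2A, 0 flanking genes were called, 3 with the replicate block and 1 (Aspg) with the tubule covariate, and leaving out each library gave 0 to 1 (Exoc3l4 without DH-LMP2A 1). Between LCDD and WT the count of 1 became 0 with a mean of at least 5 CPM, which drops 4930427A07Rik, with only the genotypes compared, with the sex covariate, with the tubule covariate and without the 3 single-mouse WT libraries. It was 1 with the block, a different gene (Hsp90aa1), and leaving out each library gave 0 to 2. Between DH-LMP2A and WT the count of 1 became 2 with DESeq2, 3 with the tubule covariate (Dlk1, Rtl1 and Cdca7l) and 4 with the block. It became 0 with a mean of at least 5 CPM, with only the genotypes compared, with the sex covariate, with a minimum log2 fold change of 1 and without the 3 single-mouse WT libraries, and leaving out each library gave 0 to 2. The block changed no call among the 98 genes beyond those given for 4930427A07Rik, Exoc3l4, Tnfaip2, Gm266, Hsp90aa1, Dlk1 and Cdca7l. The blocked counts, refitted without each library as an alternative chosen after seeing the data, ran from 0 to 5 for LCDD and DH-LMP2A, 1 to 2 for LCDD and WT, and 0 to 10 for DH-LMP2A and WT. Without the 3 single-mouse WT libraries both blocked counts against WT were 0. The causes were not tested, beyond fewer genes or libraries in a fit.

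Over all genes tested, the calls for LCDD over DH-LMP2A, LCDD over WT and DH-LMP2A over WT numbered 334, 308 and 105. They were 820, 737 and 472 with DESeq2, 1021, 536 and 562 with the block, and 284, 33 and 19 with the sex covariate. With a mean of at least 5 CPM they were 153, 116 and 54. They were 841, 222 and 374 with the tubule covariate, and 213, 185 and 77 with only the genotypes compared. The counts against WT were 54 and 69 without the single-mouse libraries, and leaving out each library gave 113 to 484, 159 to 441 and 29 to 407. Of 1383 values of named genes under alternatives, 1355 kept their call or lack of one, 22 lost it and 6 gained one. A sign opposite to the reported one occurred in 126, none of them with a call. RLE scaling moved single CPM values by a ratio of 0.976 to 1.02 and the median of all genes by at most 0.03 log2 units. Begain had 3 counts or fewer in 6 libraries and Vipr2 in 1, which limits what could be detected for them.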
